A study of Mus musculus with 12 samples.

Results

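Expression of 8 genes that carry iron into macrophages, store it, move it inside the cell and release it was followed through every library of the series. The genes are Tfrc, Slc11a2, Slc11a1, Fth1, Ftl1, Slc40a1, Cp and Spic. They were chosen by symbol for their function, with earlier results of these data known, and each matched 1 Ensembl gene among the 55487 genes of the count tables. Bone marrow-derived macrophages (BMMs) from C57BL/6 mice with an age of 8 weeks in the labels were compared after ovariectomy (OVX) or a sham operation, with 3 libraries each. Ovariectomy removes the ovaries and is used as a model of bone loss after menopause. In a second experiment, bone marrow mesenchymal stem cells (MSCs) of the same strain and age were cultured alone (MSC), with RAW cells (MSC+RAW), or with RAW cells stimulated by lipopolysaccharide (MSC+RAW-LPS), with 2 libraries each. RAW264.7 is a mouse macrophage line, and lipopolysaccharide (LPS) is a bacterial product that activates macrophages. The methods describe female mice, macrophages grown from leg bone marrow with macrophage colony-stimulating factor, and MSCs taken at passage 3 as the adherent cells of washed marrow with no sorting step. The labels say that the MSCs were co-cultured, and whether a membrane kept the RAW cells apart in the sequenced cultures is not given in them.

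Macrophages take in iron bound to transferrin through the transferrin receptor, and much more of it as heme from old red cells. Iron leaves the endosome or the phagosome through proton-coupled transporters, is stored inside a shell of ferritin heavy and light chains, and leaves the cell through ferroportin, the only known exporter of iron from mammalian cells. Ferroxidases such as ceruloplasmin oxidize the exported iron so that transferrin can bind it. Iron regulatory proteins (IRPs) bind a hairpin in the messenger RNA, the iron-responsive element, when iron is scarce. A hairpin in the 5′ untranslated region (UTR) then blocks translation, and hairpins in the 3′ UTR protect the transcript from decay. RNA-seq can therefore register the second kind of control and not the first.

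Hairpins of this kind that met the rule below are shown, because their place separates transcripts that IRPs stabilize from those they silence. The GRCm38 transcripts of GENCODE were searched for the loop CAGTGN, where N is any base, closed by 5 paired bases (G-U pairs allowed) with an unpaired C on the 5′ side of the stem. Only the strand of the transcript was searched. In the 28 bases printed for each site the loop is in capitals. Of the 8 members 4 (50% of them) held such a hairpin, against 294 of 21901 protein-coding genes (1.34%) and 0 of 62 further genes of iron and heme handling. The rule was written for the iron-responsive element and the members were chosen for iron handling, so these shares are a description and no test of enrichment. The members had 7 sites. Fth1, Ftl1 and Slc40a1 had 1 each in the 5′ UTR, at chr19:9982732-9982759 (plus strand), chr7:45459780-45459807 (minus strand) and chr1:45925466-45925493 (minus strand).
Fth1 5′ UTR: ttcctgcttcaaCAGTGCttgaacggaa
Ftl1 5′ UTR: gtcttgcttcaaCAGTGTttgaacggaa
Slc40a1 5′ UTR: caacttcagctaCAGTGTtagctaagtt
Tfrc had 4 sites, all in the 3′ UTR on the plus strand, at chr16:32631219-32631246, chr16:32631598-32631625, chr16:32631663-32631690 and chr16:32631710-32631737. They are given here in that order.
Tfrc 3′ UTR, site 1: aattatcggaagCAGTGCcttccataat
Tfrc 3′ UTR, site 2: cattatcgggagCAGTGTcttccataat
Tfrc 3′ UTR, site 3: ctatatcggagaCAGTGAtctccatatg
Tfrc 3′ UTR, site 4: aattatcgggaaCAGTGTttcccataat
Slc11a2, Slc11a1, Cp and Spic held no sequence that met this rule, which says only that this form is not in their annotated transcripts. The rule allows no unpaired base within its 5 pairs, so a hairpin with a bulge there would be missed. Whether these genes carry an iron-responsive element of another form was not tested.

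Libraries held between 17012923 and 45367105 counts. The chi-square between the counts of sham replicates 2 and 3, relative to sampling alone, was 2.48 for genes of low count and 2.71 for genes of high count, and for the MSC+RAW libraries it was 3.15 and 3.26. In all other pairs of 1 group it was at least 3.93 and 18.87. The sham pair and the MSC+RAW pair thus differed by more than sampling alone, but by about the same factor at low and at high counts, and each was counted as 1 sample, which leaves n = 3 for OVX, n = 2 for sham, n = 2 for MSC, n = 1 for MSC+RAW and n = 2 for MSC+RAW-LPS. Nothing in the labels says whether libraries of a group came from separate animals or cultures, so p-values measure the spread between these samples, which may be technical.

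Macrophage markers were high in every library, those labelled MSC included. The summed level of 15 macrophage markers, in counts scaled to a common library size (CPM), lay between 47111 and 51386 in OVX, 61519 and 68967 in sham, 30913 and 31042 in MSC, 40565 and 41222 in MSC+RAW, and 15652 and 16311 in MSC+RAW-LPS. None of the 15 was at 0 counts in any group, and Lyz2, which encodes a lysozyme of macrophages and neutrophils, was at 21829 and 21746 CPM in MSC replicates 1 and 2. The summed level of 12 stromal markers was 8296 to 9259 CPM in OVX, 7089 to 8049 in sham, 2792 to 2912 in MSC, 2185 to 2198 in MSC+RAW and 4007 to 4059 in MSC+RAW-LPS. In MSC, 11 of the 12 stromal markers averaged 1 CPM or more. The collagen genes Col1a1 and Col1a2 were at 458 and 460.4 CPM and at 889 and 928 CPM in MSC replicates 1 and 2, and Thy1, a marker of cultured MSCs, was at 0.454 and 0.294 CPM. Because markers of both cell types were present in both experiments, all values are described as those of the labelled libraries and not of 1 cell type. The name BMM below is likewise the label of the OVX and sham libraries, where the summed stromal markers were higher than in the MSC experiment. In bulk RNA, fewer cells of a type and less RNA per cell cannot be told apart. Erythroid markers summed to at most 7.05 CPM in any library, with Slc4a1 at 0 counts in every group.

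In BMMs, 4 of the 8 genes were lower in OVX than in sham by at least 2-fold with an edgeR adjusted p of at most 0.05, namely Spic, Fth1, Slc11a1 and Slc11a2. None of the 8 was higher. Among all 16768 genes tested, 3.08% were called lower and 5.39% higher. The median log2 fold change was -0.90 over the 8 genes and -0.01 over all genes. All 8 genes passed the filter on low counts in both experiments. Without OVX replicate 2, 1 of the 8 genes, Spic, was still called lower, and without OVX replicate 1, 2 were, Spic and Fth1. Of the 15 macrophage markers 2 were called lower (Adgre1 and Fcgr1) and 0 higher. Their log2 fold changes had a median of -0.67 and reached 0.63 in Ptprc, which was not called. Of 10 osteoclast markers 4 were called lower and 0 higher, and of 12 cell cycle genes 3 were called higher and 0 lower. Ribosomal RNA took 2.559%, 2.775% and 2.744% of counts in OVX replicates 1 to 3 and 3.221%, 5.69% and 5.699% in sham replicates 1 to 3. For transcripts of mitochondrial DNA the shares were 1.719%, 1.104% and 1.047% in OVX and 1.117%, 0.769% and 0.769% in sham. The part of any of these in the changes of the iron genes was not tested.

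The MSC experiment gave 3 comparisons, which share libraries and are not independent of each other. In MSC+RAW-LPS against MSC+RAW, 3 of the 8 genes were called higher (Cp, Slc11a1 and Tfrc) and 1 lower (Slc40a1), against 15.4% and 12% of all 20499 genes tested. In MSC+RAW-LPS against MSC, 3 were called higher (Cp, Fth1 and Spic) and 1 lower (Slc40a1), against 5.85% and 5.09% of all genes. In MSC+RAW against MSC, 0 were called higher and 2 lower (Tfrc and Slc40a1), against 6.80% and 9.59%. The median log2 fold change of the 8 genes was 0.40, 0.43 and -0.21 in these comparisons, and that of all genes 0.14, -0.01 and -0.13. MSC+RAW has 1 independent sample, and its fits assume that it varies like the other groups. Of the 15 macrophage markers, 8 were called lower and 4 higher in MSC+RAW-LPS against MSC+RAW, 6 lower and 1 higher in MSC+RAW-LPS against MSC, and 0 lower and 3 higher in MSC+RAW against MSC. Of the 12 stromal markers, 5 were called higher and 1 lower in MSC+RAW-LPS against MSC+RAW (median log2 fold change 0.76), 2 and 0 in MSC+RAW-LPS against MSC (0.41), and 2 and 2 in MSC+RAW against MSC (-0.34). The 10 neutrophil markers summed to 11.8 to 16.6 CPM in MSC, 31.5 to 34.5 CPM in MSC+RAW and 370.5 to 554 CPM in MSC+RAW-LPS. S100a8 and Camp were called higher in both comparisons of MSC+RAW-LPS, and 4 of the 10 (Ltf, Elane, Retnlg and Cxcr2) were at 0 counts in that group. Ribosomal RNA took 4.825% and 4.143% of counts in MSC, 1.933% and 1.909% in MSC+RAW and 8.025% and 5.67% in MSC+RAW-LPS. Transcripts of mitochondrial DNA took 0.533% and 0.692%, 0.165% and 0.16%, and 0.746% and 0.655% in the same order. The 10 osteoclast markers summed to 145 to 153 CPM in MSC, 187 CPM in each MSC+RAW library and 865 to 929 CPM in MSC+RAW-LPS, with Mmp9 and Car2 called higher and Atp6v0d2 lower in both comparisons of MSC+RAW-LPS. Of the 12 cell cycle genes, 3 were called lower in each of these comparisons, and 1 higher in that against MSC+RAW, while 2 were lower and 1 higher in MSC+RAW against MSC. The part of any of these in the values below was not tested.

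**Figure D1:**
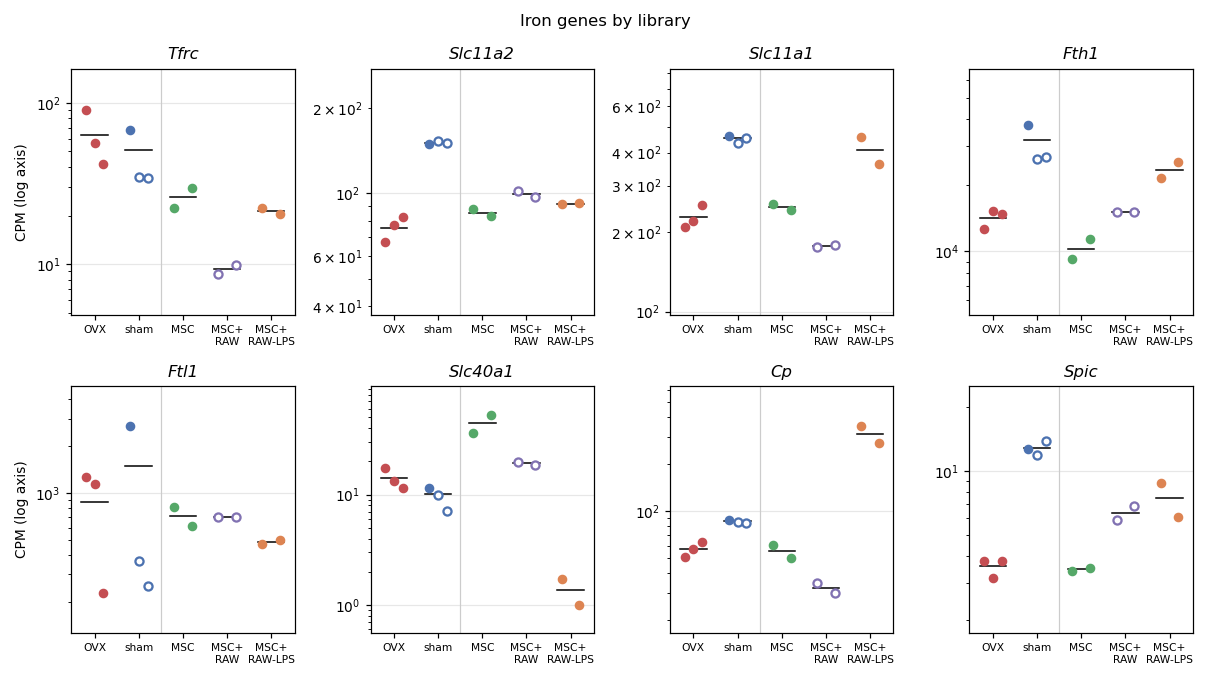
Level of each of the 8 genes in every library, in CPM on log axes that differ between panels, with the BMM groups left of the grey line and the MSC groups right of it. Open circles are near-identical libraries counted as 1 sample, and black bars are means over independent samples. Spic, Fth1, Slc11a1, Slc11a2 and Cp, the last of which was not called, lie lower in all 3 OVX libraries than in all 3 sham libraries. Slc40a1 and Cp stand apart in MSC+RAW-LPS.

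**Figure D2:**
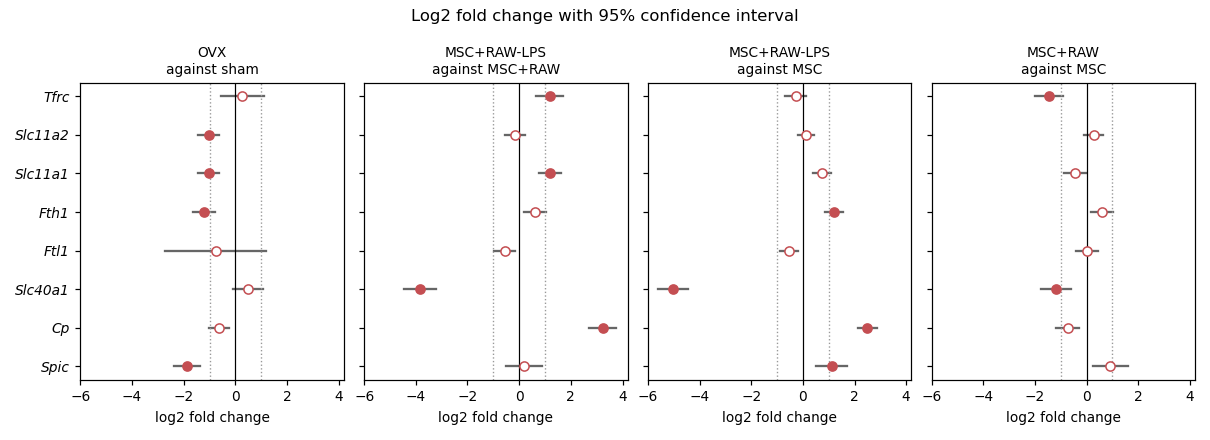
Log2 fold change of each gene with its 95% confidence interval (edgeR) in the 4 comparisons, filled where the gene was called, with dotted lines at the fold limit. Slc40a1 has the lowest value, -5.02 in MSC+RAW-LPS against MSC, and Cp the highest, 3.23 in MSC+RAW-LPS against MSC+RAW.

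Tfrc (ENSMUSG00000022797, GRCm38 chromosome 16, 32608920 to 32632794, plus strand) encodes the transferrin receptor, the main route by which cells take up transferrin-bound iron. Its level was 90.7, 56.6 and 41.5 CPM in OVX replicates 1 to 3 and 68.1, 34.7 and 34.1 CPM in sham replicates 1 to 3. The groups overlapped, and the libraries of each group differed by more than the group means did. The log2 fold change was 0.27 (SE 0.37, 95% interval -0.57 to 1.11, edgeR adjusted p = 0.669), and without OVX replicate 1 it was -0.09. In the MSC experiment Tfrc was at 22.2 and 29.8 CPM in MSC, 8.72 and 9.84 CPM in MSC+RAW and 22.3 and 20.4 CPM in MSC+RAW-LPS. Both MSC+RAW libraries lay under all others. Tfrc was 2.73-fold lower in MSC+RAW than in MSC (log2 fold change -1.45, SE 0.25, edgeR adjusted p = 0.000798) and 2.26-fold higher in MSC+RAW-LPS than in MSC+RAW (1.18, SE 0.25, edgeR adjusted p = 0.00134). MSC+RAW-LPS and MSC overlapped, with a log2 fold change of -0.27 (95% interval -0.68 to 0.13, edgeR adjusted p = 0.368).

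Slc11a2 (ENSMUSG00000023030, chromosome 15, 100387898 to 100425072, minus strand) encodes divalent metal transporter 1, which carries ferrous iron out of the endosome once transferrin has released it. Its level was 67.2, 77.5 and 82.4 CPM in the OVX replicates and 149.7, 153 and 151 CPM in the sham replicates. Every OVX library lay below every sham library, and the spread within groups was small beside the gap. Slc11a2 was 2.04-fold lower in OVX (log2 fold change -1.03, SE 0.18, edgeR adjusted p = 0.0111). The MSC libraries were at 87.9 and 82.9 CPM, the MSC+RAW libraries at 102 and 97.4 CPM and the MSC+RAW-LPS libraries at 91.8 and 92.4 CPM. None of the 3 comparisons among them passed the test. The log2 fold change was 0.27 for MSC+RAW against MSC (95% interval -0.10 to 0.65), -0.15 for MSC+RAW-LPS against MSC+RAW (-0.53 to 0.23) and 0.12 for MSC+RAW-LPS against MSC (-0.19 to 0.43). All 3 intervals lay inside the 2-fold limits.

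Slc11a1 (ENSMUSG00000026177, chromosome 1, 74375195 to 74386062, plus strand) encodes NRAMP1, a relative of Slc11a2 in the membrane of phagosomes that removes iron and manganese from engulfed microbes and red cells. C57BL/6 mice carry an allele of this gene whose protein is not functional, so its transcript does not stand for transport in these cells. Its level was 209.9, 221 and 253 CPM in the OVX replicates and 463, 437 and 454 CPM in the sham replicates, with no overlap. It was 2.04-fold lower in OVX (log2 fold change -1.03, SE 0.17, edgeR adjusted p = 0.0109). In the MSC experiment it was at 255 and 242 CPM in MSC, 175 and 179 CPM in MSC+RAW and 458 and 363 CPM in MSC+RAW-LPS. Both LPS libraries lay above all others. The rise over MSC+RAW was 2.27-fold (log2 fold change 1.18, SE 0.20, edgeR adjusted p = 0.000308). Against MSC the log2 fold change was 0.73 (SE 0.16, edgeR adjusted p = 0.00322), which is under the fold limit, and MSC+RAW against MSC gave -0.45 (edgeR adjusted p = 0.100).

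Fth1 (ENSMUSG00000024661, chromosome 19, 9980598 to 9985098, plus strand) encodes the ferritin heavy chain, which oxidizes iron as it enters the ferritin shell. Its level was 12669, 15323 and 14779 CPM in the OVX replicates and 37672, 26448 and 26869 CPM in the sham replicates. The groups did not overlap, and sham replicate 1 was the highest library of all 12. Fth1 took 1.37% to 1.62% of all counts in the OVX libraries and 2.54% to 3.35% in the sham libraries. It was 2.31-fold lower in OVX (log2 fold change -1.21, SE 0.19, edgeR adjusted p = 0.00882). Without sham replicate 1 the log2 fold change was -0.97, under the fold limit, with an edgeR adjusted p of 0.00354.

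Fth1 was lowest in MSC, intermediate in MSC+RAW and highest in MSC+RAW-LPS, with no overlap between any of these groups. The MSC libraries were at 9275 and 11335 CPM, the MSC+RAW libraries at 15076 and 15059 CPM and the MSC+RAW-LPS libraries at 21503 and 25438 CPM. The whole step from MSC to MSC+RAW-LPS was 2.29-fold (log2 fold change 1.20, SE 0.17, edgeR adjusted p = 5.98e-05) and was called under each of the 16 alternatives. The steps on either side of MSC+RAW were under the fold limit. They were 0.59 in log2 from MSC to MSC+RAW (SE 0.20, edgeR adjusted p = 0.0345) and 0.60 from MSC+RAW to MSC+RAW-LPS (SE 0.21, edgeR adjusted p = 0.0281).

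Ftl1 (ENSMUSG00000050708, chromosome 7, 45457944 to 45459884, minus strand) encodes the ferritin light chain, which helps the shell to form its iron core. Its level was 1277, 1137 and 228 CPM in the OVX replicates and 2688, 367 and 252 CPM in the sham replicates. Both groups held libraries on either side of 1000 CPM, with means of 881 CPM (SD 569.7, n = 3) in OVX and 1499 CPM (SD 1681, n = 2) in sham. The log2 fold change was -0.77 (SE 0.85, 95% interval -2.71 to 1.17, edgeR adjusted p = 0.587), and it was 1.48 without sham replicate 1. The ratio of Fth1 to Ftl1 counts in a library, which does not depend on scaling, was 9.92, 13.5 and 64.8 in the OVX replicates and 14.0, 72.1 and 107 in the sham replicates. The ratio thus differed several-fold within each group. Ftl1 was not called in BMMs under any of the 16 alternatives, and its edgeR adjusted p over them lay between 0.00801, with no filter on low counts at a log2 fold change of -0.77, and 0.921.

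In the MSC experiment Ftl1 was at 811 and 613 CPM in MSC, 698 and 706 CPM in MSC+RAW and 472 and 499.8 CPM in MSC+RAW-LPS. The LPS libraries lay under all others. The log2 fold change was -0.54 against MSC (SE 0.16, edgeR adjusted p = 0.0279) and -0.56 against MSC+RAW (SE 0.20, edgeR adjusted p = 0.0321), both under the fold limit, and 0.02 for MSC+RAW against MSC (edgeR adjusted p = 0.949). In MSC+RAW-LPS the values of the ferritin chains thus had opposite signs. The ratio of Fth1 to Ftl1 counts was 11.4 and 18.5 in MSC, 21.6 and 21.3 in MSC+RAW and 45.5 and 50.9 in MSC+RAW-LPS. Ftl1 has similar copies elsewhere in the genome, so its level is uncertain. The processed pseudogenes Ftl2-ps and Ftl1-ps2 were counted at up to 15.8 and 2.25 CPM, both in sham replicate 1. Ftl1-ps1, annotated as protein-coding, was counted at 27.7, 16.6 and 15.1 CPM in the OVX replicates and 46.3, 13.6 and 9.17 CPM in the sham replicates, highest in OVX replicate 1 and sham replicate 1, where Ftl1 was highest too. How reads that fit several places were counted is not given in the sources used here, and its part in the Ftl1 values was not tested.

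Slc40a1 (ENSMUSG00000025993, chromosome 1, 45908068 to 45926523, minus strand) encodes ferroportin. Its level was 17.5, 13.4 and 11.4 CPM in the OVX replicates and 11.5, 10 and 7.09 CPM in the sham replicates. The lowest OVX library lay just under the highest sham library. The log2 fold change was 0.47 (SE 0.26, 95% interval -0.11 to 1.06, edgeR adjusted p = 0.254). The MSC experiment held the largest changes of any of the 8 genes here. Slc40a1 was at 36.5 and 53.0 CPM in MSC, 19.7 and 18.6 CPM in MSC+RAW and 1.71 and 1.01 CPM in MSC+RAW-LPS, where 57 and 32 counts were found. The 3 groups were fully apart. Slc40a1 was 32.4-fold lower in MSC+RAW-LPS than in MSC (log2 fold change -5.02, SE 0.28, edgeR adjusted p = 2.34e-09) and 14.3-fold lower than in MSC+RAW (-3.84, SE 0.29, edgeR adjusted p = 1.26e-07). Both were called under each of the 16 alternatives, with log2 fold changes from -5.47 to -4.70 and from -4.58 to -3.52. It was 2.26-fold lower in MSC+RAW than in MSC (-1.18, SE 0.28, edgeR adjusted p = 0.00560), and without MSC replicate 2 this was -0.88.

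Cp (ENSMUSG00000003617, chromosome 3, 19957054 to 20009145, plus strand) encodes ceruloplasmin, the copper-containing ferroxidase that works with ferroportin. Its level was 51.1, 57.2 and 63.0 CPM in the OVX replicates and 87.3, 85.6 and 83.8 CPM in the sham replicates. The groups did not overlap, and the log2 fold change of -0.63 (SE 0.18) lay under the fold limit and just missed the limit on p (edgeR adjusted p = 0.0510). In the MSC experiment Cp went the opposite way to Slc40a1 once LPS was used. It was at 60.8 and 50.3 CPM in MSC, 34.5 and 29.9 CPM in MSC+RAW and 349 and 273 CPM in MSC+RAW-LPS. Cp was 9.38-fold higher in MSC+RAW-LPS than in MSC+RAW (log2 fold change 3.23, SE 0.24, edgeR adjusted p = 9.39e-08) and 5.64-fold higher than in MSC (2.49, SE 0.17, edgeR adjusted p = 3.38e-08). Both were called under each of the 16 alternatives. MSC+RAW against MSC gave -0.73 (SE 0.21, edgeR adjusted p = 0.0165), under the fold limit. The 3′ part of Cp overlaps Hps3 on the other strand, which was counted at 14.8 to 32.1 CPM over all libraries, and the strand setting of the counting is not given in the sources used here. Hps3 was at 20.3 and 15.6 CPM in MSC+RAW-LPS, within its range over the other libraries.

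Spic (ENSMUSG00000004359, chromosome 10, 88674772 to 88685015, minus strand) encodes the transcription factor needed for the macrophages of spleen and bone marrow that recycle iron from red cells. Its level was 3.79, 3.15 and 3.78 CPM in the OVX replicates and 12.7, 11.9 and 13.8 CPM in the sham replicates. Each group was tight, and the gap between them was the widest of the 8 genes in BMMs relative to its error. Spic was 3.68-fold lower in OVX (log2 fold change -1.88, SE 0.22, edgeR adjusted p = 0.00491). It was the only one of the 8 genes called under each of the 16 alternatives, with log2 fold changes from -2.50 to -1.79. In MSC it was at 3.42 and 3.50 CPM, in MSC+RAW at 5.92 and 6.83 CPM and in MSC+RAW-LPS at 8.78 and 6.09 CPM. Spic was 2.16-fold higher in MSC+RAW-LPS than in MSC (log2 fold change 1.11, SE 0.28, edgeR adjusted p = 0.00834). Without MSC+RAW-LPS library a this was 0.80 (edgeR adjusted p = 0.0552). MSC+RAW against MSC gave 0.92 (SE 0.32, edgeR adjusted p = 0.0437), under the fold limit, and MSC+RAW-LPS overlapped MSC+RAW, with 0.20 (95% interval -0.50 to 0.89).

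Set side by side per kilobase of exon, the 8 genes spanned over 1000-fold. Fth1 led in every group, with a mean of 4109.8 CPM per kilobase in OVX and 9272 in sham, followed by Ftl1 with 657 and 1118 and Slc11a1 with 61.6 and 123. In OVX the next levels were Slc11a2 at 11.9 and Tfrc at 10.2 CPM per kilobase, which overlapped between libraries, then Cp at 5.97, Slc40a1 at 1.57 and Spic at 0.931. In sham they were Slc11a2 at 23.7, Cp at 8.99 and Tfrc at 8.29, of which Cp and Tfrc overlapped, then Spic at 3.32 and Slc40a1 at 1.12. Spic and Slc40a1 thus stood in the opposite order in the OVX and sham groups. In MSC, Slc40a1 at 4.97 CPM per kilobase overlapped both Cp at 5.80 and Tfrc at 4.21. In MSC+RAW-LPS, Cp at 32.5 stood above Slc11a2 at 14.5, and Slc40a1 was last at 0.152. The 2 experiments were normalized separately, so levels set across them are a description.

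The GC content of genes went along with their level, and this trend moved with the groups. Across genes, Spearman's rho of GC content with the log2 level centered on each gene's mean within its experiment lay between -0.573 and -0.317 in the OVX libraries and between 0.204 and 0.481 in the sham libraries. It was -0.221 and -0.278 in MSC, 0.358 and 0.354 in MSC+RAW and -0.261 and -0.122 in MSC+RAW-LPS. Over the members, the GC content of the transcripts ran from 39.8% in Tfrc, 41.7% in Cp, 41.8% in Spic and 42.0% in Slc40a1 to 55.4% in Slc11a1 and 58.1% in Ftl1. With the trend on GC content removed from each library, Fth1 and Spic were still called lower in OVX, and Cp was called as well, at a log2 fold change of -1.24 (edgeR adjusted p = 0.0165). Slc11a2 and Slc11a1 fell under the fold limit, at -0.94 and -0.68 (edgeR adjusted p = 0.0134 and 0.0415), and the signs of Slc40a1 and Tfrc changed, to -0.14 and -0.52. Of all genes called in BMMs 63.6% were higher in OVX, and 37.7% with this trend removed.

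In the MSC experiment the same step removed both calls of MSC+RAW against MSC, with Slc40a1 at -0.49 and Tfrc at -0.60 (edgeR adjusted p = 0.171 and 0.0658), and Spic was called higher at 1.61 (edgeR adjusted p = 0.00267). Tfrc in MSC+RAW-LPS against MSC+RAW was then 0.30 and no longer called. In MSC+RAW-LPS against MSC, where the rho values of the groups were close, all 4 calls remained. In MSC+RAW against MSC it moved single genes by a median of 0.11 in log2, and the median of all genes from -0.13 to -1.4e-03. Among all genes called in that comparison 41.5% were higher, and 52.8% with the trend on GC content removed, 52.2% with the trend on gene length removed.

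**Figure D3:**
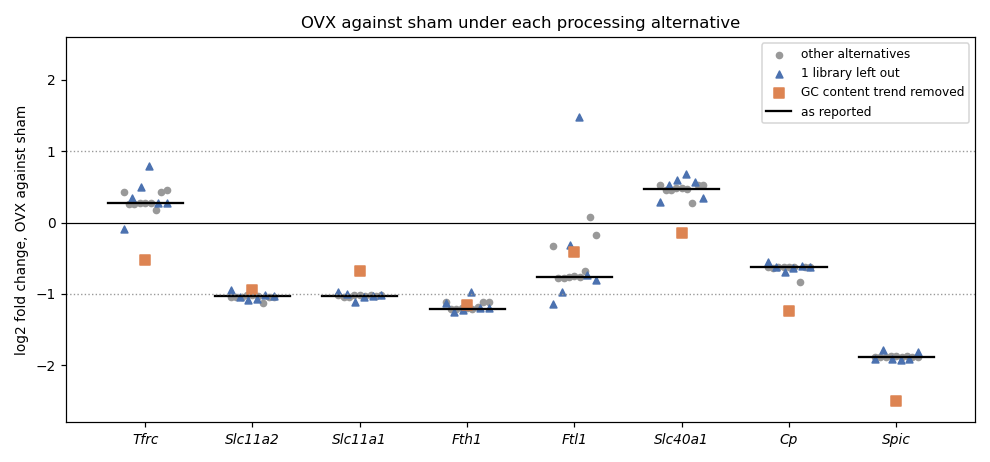
Log2 fold change of each gene for OVX against sham, as reported (black bars) and under each processing alternative (symbols), with dotted lines at the fold limit. Removal of the GC content trend (squares) takes Slc11a1 to -0.68 and Cp to -1.24, and leaving out sham replicate 1 takes Ftl1 to 1.48.

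Of 62 further genes of iron and heme handling, 56 were tested in BMMs, and 1 was called higher and 5 lower in OVX, against 5.39% and 3.08% of all genes. Their median log2 fold change was -0.19. Of 12 genes for the capture and recycling of heme and hemoglobin 3 were lower and 0 higher. They were Hp (haptoglobin, which binds free hemoglobin) at -1.94 (SE 0.24, edgeR adjusted p = 0.00545), Blvrb (a biliverdin reductase) at -1.38 (SE 0.19, edgeR adjusted p = 0.00750) and Hmox1 (heme oxygenase, which opens the heme ring) at -1.13 (SE 0.19, edgeR adjusted p = 0.0107). Hp was at 84.1, 103 and 97.1 CPM in the OVX replicates against 275, 429.8 and 429.9 CPM in the sham replicates. Hmox1 was at 154, 122 and 145 CPM against 277, 312 and 324 CPM. Neither gene overlapped between the groups.

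Of the 10 uptake genes 2 were lower in OVX, Steap4 (a metalloreductase) at -1.94 and Lcn2 (lipocalin 2, which binds bacterial siderophores that carry iron) at -1.08, with edgeR adjusted p of 0.00983 and 0.00874. Of 3 genes for the control of IRPs 1 was higher. It was Ireb2, which encodes IRP2, at 1.23 (SE 0.23, edgeR adjusted p = 0.0141), with 57.1, 43.8 and 37.9 CPM in the OVX replicates against 20.8, 17.4 and 18.3 CPM in the sham replicates. None of the genes tested for storage and ferritin turnover (4), export and systemic control (4), heme synthesis (8), mitochondrial iron and iron-sulfur clusters (10) or their regulators (5) was called. With the GC content trend removed, 3 of the 6 calls remained, those of Hp, Blvrb and Steap4, and Ireb2 was at 0.37 (edgeR adjusted p = 0.173). Without OVX replicate 2, 2 of the 62 genes were called, Hp and Blvrb.

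In MSC+RAW-LPS against MSC, 7 of the 58 genes tested were called higher and 6 lower, against 5.85% and 5.09% of all genes, with a median of 0.17. Uptake genes took 4 of the rises and 3 of the falls. Lcn2 was at 53.9 and 54.6 CPM in MSC and at 2717 and 3309.8 CPM in MSC+RAW-LPS, a difference of 5.81 in log2 (SE 0.19, edgeR adjusted p = 1.15e-11). Steap4 and Steap2 rose by 3.68 and 1.64 in log2, and Steap3, the ferrireductase of the transferrin cycle, fell by 2.33. In heme capture and recycling, Hp rose by 3.64 and Hpx (hemopexin, which binds free heme) by 1.16, while Blvra (a biliverdin reductase) fell by 1.46 and Cd163 (the hemoglobin scavenger receptor) by 1.29. Hfe, a partner of the transferrin receptors in iron sensing, fell by 1.15, and Fbxl5, which directs the breakdown of IRP2 when iron is plentiful, rose by 1.02. Of these 13 calls 12 were also made with the GC content trend removed. Leaving out 1 library ended the calls of Fbxl5 (MSC replicate 1 or MSC+RAW-LPS library b), Cd163 (MSC replicate 2) and Hpx (either MSC replicate).

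In MSC+RAW-LPS against MSC+RAW, 14 of the 58 genes were called higher and 7 lower, against 15.4% and 12% of all genes, with a median of 0.12. The share called lower was that of all genes. Uptake held 5 rises and 3 falls, the largest being Lcn2 at 5.17, Steap4 at 3.10, Steap2 at 2.57 and Steap3 at -2.38. In heme capture and recycling Blvra fell by 2.46, and Hp and Flvcr2 (a membrane transporter once assigned to heme) rose by 2.32 and 2.18. Fbxl5 rose by 2.16, Nfe2l2 (the regulator NRF2, which activates ferritin and heme oxygenase genes) by 1.51, Heph (hephaestin, a ferroxidase like Cp) by 1.41 and Pcbp2 (an iron chaperone) by 1.25. In heme synthesis Alad fell by 1.44 and Cpox rose by 1.26. Among mitochondrial genes Slc25a37 (mitoferrin 1, an iron importer) rose by 1.45 and Abcb8 (a mitochondrial transporter) fell by 1.40. With the GC content trend removed, 16 of these 21 calls remained. Pcbp2 at 0.59, Abcb8 at -0.96 and Heph at 1.05 were among those lost, and Steap2 and Fbxl5 were smaller, at 1.69 and 1.42. Heph was also not called by DESeq2 or with the gene length trend removed. Without MSC+RAW-LPS library b, Heph, Cpox and Slc39a8 (a zinc and iron importer) were no longer called.

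In MSC+RAW against MSC, 9 of the 58 genes were called higher and 7 lower, against 6.80% and 9.59% of all genes, with a median of 0.07. The share called lower was close to that of all genes. Heme capture and recycling held 4 rises and 3 falls, the largest being Abcg2 at -1.67, Flvcr1 (described as a heme exporter) at -1.53, Blvrb at 1.40 and Hp at 1.31. Mitochondrial genes held 3 rises and 2 falls, among them Iscu (the scaffold for iron-sulfur clusters) at 1.15, Abcb8 at 1.10 and Abcb10 at -1.09. The others were Slc22a17 (a receptor of lipocalin 2) at 1.26, Alad at 1.21, Nfe2l2 at -1.15 and Fbxl5 at -1.14. With the GC content trend removed 5 of the 16 calls remained, among them Flvcr1 at -1.09, Blvrb at 1.17 and Abcb10 at -1.32. Those lost included Abcg2 at -0.78, Hp at 0.89, Iscu at 0.93, Abcb8 at 0.64, Slc22a17 at 0.74, Alad at 0.78, Nfe2l2 at -0.81 and Fbxl5 at -0.43. Without MSC replicate 2 the number of genes called was 10, with Iscu, Fbxl5 and Abcb10 among those lost. Abcb10 and Slc22a17 were not called without MSC replicate 1, nor Slc22a17 without MSC+RAW library a.

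**Figure D4:**
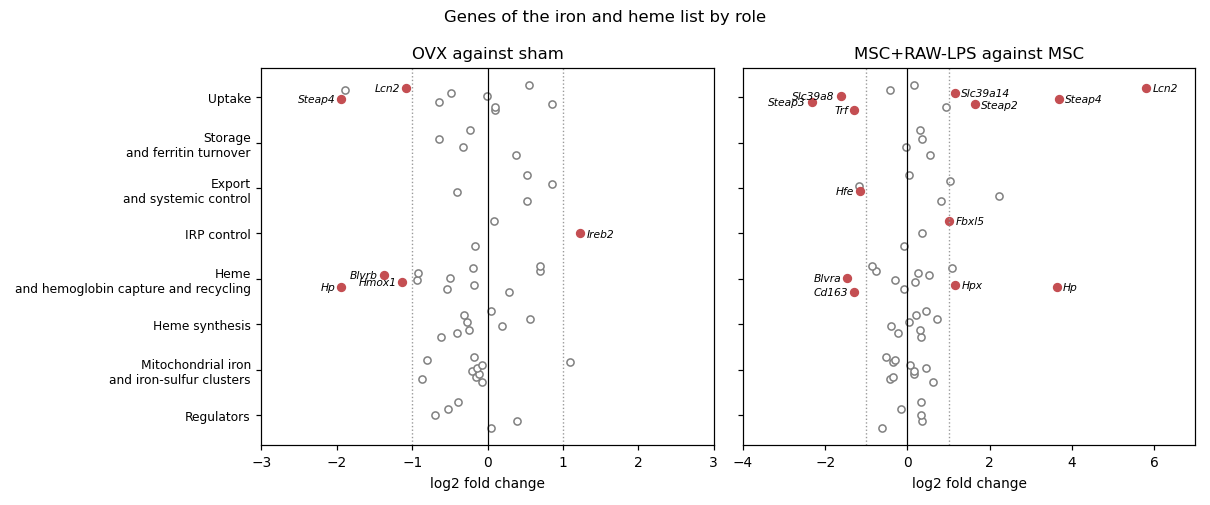
Log2 fold change of the genes tested of the 62-gene iron and heme list, by role, for OVX against sham (left) and MSC+RAW-LPS against MSC (right, on a wider axis), filled and named where called, with dotted lines at the fold limit. In OVX against sham 5 of the 6 called genes lie left of 0, and in MSC+RAW-LPS against MSC 7 of the 13 lie right of 0, with Lcn2 farthest out at 5.81.

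The genes whose pattern was most like that of each member were named by Pearson's r of log2 CPM over the 10 independent samples of both experiments, among 10600 genes that averaged 5 CPM or more. The samples share groups, experiments and GC content trends, so these values are a description. Tfrc was most like Fam45a (r = 0.996) and Glrx3 (0.993), Slc11a2 like Vill (0.976) and Ifitm2 (0.973), and Slc11a1 like Plagl2 (0.965) and Zfp217 (0.963). Fth1 was most like Zfand3 (0.974), and Ftl1 like Rpl21-ps8 (0.959) and Akr1b3 (0.926). Slc40a1 was most like Tlr13 (0.985) and Lrp4 (0.980), Cp like Mmp10 (0.980) and Arrdc4 (0.975), and Spic like Rasa4 (0.956) and Cpsf4 (0.954). No gene of the 8 was among those most like another of them.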

How the data were processed

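RNA-seq was analyzed for 12 libraries. According to the methods and the submitters' processing notes, the authors selected poly(A) RNA, prepared directional libraries, sequenced read pairs, trimmed them with Trim Galore 0.6.7, mapped them to GRCm38 with HISAT2 2.1.0 and counted them per Ensembl gene with featureCounts 2.0.1. The deposited files hold raw, unnormalized counts for each gene in each library. Even values made up 60.0% to 71.4% of the counts from 1 to 20, so counts may not be single fragments, which was not tested. Gene names came from GENCODE vM21 (GRCm38), which named 55141 of 55487 identifiers.

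Counts of near-identical libraries were summed. Each experiment was fitted with edgeR 4.0.16 in R 4.3.3 (TMM, filterByExpr, two-sided quasi-likelihood F-test, Benjamini-Hochberg adjustment over all genes tested). Calls needed a 2-fold difference and an adjusted p no higher than 0.05. CPM are TMM-scaled per library, and means treat a near-identical pair as 1 sample. The column names of the MSC+RAW and MSC+RAW-LPS libraries give their group but not which replicate, and they are called a and b. Simulated data of the same design were used to test the fits. The 8 genes, the list of 62 and the markers were chosen with earlier results of these data known. All 8 were named, and of the 62 those called, at most 4 per role, except a few genes that are not reported here. Tables used python 3.11.15 with pandas 2.3.3, and figures matplotlib 3.10.9.

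Alternatives were every library as its own replicate, RLE normalization, DESeq2 1.42.0, no filter on low counts, a filter at a mean of 1 CPM, the replicate number as a block, calls without a limit on fold, only the 2 groups compared, each library left out, no ribosomal or mitochondrial RNA, and lowess trends on GC content or gene length removed (span 0.3). The library code (BMMs) and the series of column names (MSC experiment) as blocks were added after the data were seen. The correlation of deviations between OVX and sham libraries of the same replicate number was 0.36, -0.01 and 0.31 for replicates 1 to 3. Because sham replicates 2 and 3 are near-identical, these values cannot tell whether replicate numbers pair the BMM samples.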

Additional observations from a re-analysis of the deposited data

How the results depend on the processing

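Of 128 values of single members under alternatives in OVX against sham, 114 kept both direction and call. So did 124 of 128 in MSC+RAW-LPS against MSC+RAW, 127 of 128 in MSC+RAW-LPS against MSC and 116 of 128 in MSC+RAW against MSC. Leaving out libraries moved the members called between 1 and 4 in OVX against sham and between 1 and 3 in MSC+RAW against MSC, the other iron and heme genes called from 2 to 10 and from 10 to 16, and all genes called in OVX against sham from 309 (without OVX replicate 2) and 678 (without OVX replicate 1) to 2390 (without sham replicate 1). With the GC content trend removed, 581 genes were called in OVX against sham and 2223 in MSC+RAW against MSC, with 8 iron and heme genes and 1 member in the latter. The gene length trend removed left 1 member called there. With no fold limit, 11, 35 and 26 iron and heme genes passed in OVX against sham, MSC+RAW-LPS against MSC+RAW and MSC+RAW against MSC, 5 members in the last, and 2193, 4286 and 5862 genes in OVX against sham, MSC+RAW-LPS against MSC and MSC+RAW against MSC.

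Signs changed in OVX against sham for Slc40a1 (-0.14) and Tfrc (-0.52) with the GC content trend removed and for Ftl1 with the replicate block (0.08). Leaving out libraries moved Tfrc there from -0.09 (without OVX replicate 1) to 0.80 and Ftl1 from -1.14 to 1.48 (without sham replicate 1). In MSC+RAW-LPS against MSC+RAW they changed for Spic with the GC content trend removed (-0.55) and without MSC+RAW-LPS library a (from -0.08 to 0.44 over libraries left out). In MSC+RAW against MSC, Ftl1 was at -3.9e-03 with every library as its own replicate, -2.9e-04 with only the 2 groups compared, -0.50 with the GC content trend removed, and between -0.16 (without MSC replicate 2) and 0.23 with libraries left out, below 0 also without MSC+RAW library b (-0.02) and MSC+RAW-LPS library a (-0.01). The cause was not tested.

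All fits with a block kept every library separate, so they also split the near-identical pairs. The replicate block called the same number of members, 4, as the fit without it, 8 iron and heme genes and 2117 genes in all. The library code as a block, chosen after seeing the data, called 4, 8 and 1693. No paired analysis was possible by replicate number in the MSC experiment because the groups compared share fewer than 2 numbers in the column names. The names fall into 2 series with 1 library of each group, and this series as a block, chosen after seeing the data, left the members called in MSC+RAW-LPS against MSC+RAW, MSC+RAW-LPS against MSC and MSC+RAW against MSC at 4, 4 and 2. The few samples per group limit what a missed call can show.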
